A study of Mus musculus with 41 samples.

Results

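The DNA replication and S phase genes are 49 named genes whose products license replication origins, unwind the template, make deoxynucleotides, copy and join the new strands, rebuild chromatin on them and guard the fork. They were taken by symbol from a count table of 48795 genes in kidneys of mice, and all 49 passed the filter on low counts in both cohorts. In every group but Control, 1 kidney had its blood flow stopped and restored, which is unilateral ischemia-reperfusion injury (UIRI), and in some mice the opposite kidney was removed (nephrectomy, Nx). The first cohort has 4 groups of 6 libraries. They are Control, which had no UIRI, UIRI d3, taken 3 days after injury, UIRI d7, taken 7 days after, and UIRI+Nx d7, with nephrectomy on day 3 and harvest on day 7. Its mice were males of 8 to 10 weeks. The left renal circulation was stopped for 21 min with the body held at 34 °C, and by the design text the mice of UIRI d7 had a sham operation on day 3. The second cohort, marked WT in its titles, has no Control and holds 6 libraries each of UIRI d3 and UIRI d7 and 4 of UIRI+Nx d7. Its sex, age, ischemia time, body temperature, day of nephrectomy and sham operation are not given, and no strain is given for either cohort. RNA came from a section of the kidney pole with all its cell types, and which kidney was sampled is not given. In such bulk tissue, fewer cells of a type and less RNA per cell cannot be told apart in any value below.

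Before a cell copies its DNA, the origin recognition complex with Cdc6 and Cdt1 loads the Mcm2 to Mcm7 ring onto each origin. In S phase Cdc45 and the GINS complex turn that ring into the active helicase, primase and DNA polymerase alpha start each strand, and polymerases delta and epsilon extend it while held by the sliding clamp Pcna. Cyclin E and the E2F transcription factors drive the step from G1 into S phase, and many replication genes are E2F targets. In the kidney, surviving tubular cells are known to enter the cell cycle after ischemic injury, and some of them copy their DNA without dividing.

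Promoter sequences of the members were searched for motifs of cell cycle genes. RefSeq promoter windows (250 bases before to 50 after the start site, build GRCm38.p6) matched 40 of the 49 symbols. The letters TTTCGCGC, TTTGGCGC, TTTCCCGC or TTTGCCGC, which are forms of the E2F motif, were searched on both strands, with a gene counted when any of its windows held at least 1 of them. They were present for 17 of the 40 members (42.5%), against 704 of 27025 genes in the whole table (2.60%). Of the other genes of the replication pathway 17 of 61 (27.9%) held them, and of the G2 and mitosis genes, which act after S phase, 2 of 33 (6.06%) held them. The letters TTTGAA or TTCGAA, forms of the CHR motif of late cell cycle genes, had the opposite spread: 6 of 40 members (15.0%), 15 of 61 other pathway genes (24.6%), 25 of 33 G2 and mitosis genes (75.8%) and 21.7% of all genes. CCAAT was present for 23 of 40 members (57.5%), 33 of 61 other pathway genes (54.1%), 24 of 33 G2 and mitosis genes (72.7%) and 41.1% of all genes. The 200 bases before the start site are printed for 5 members with an E2F match, from the licensing, helicase, polymerase and repair genes. Clamp and chromatin assembly members with a match, such as Lig1 and Uhrf1, are not printed. Rrm2 and Tk1, which fell most between day 3 and day 7 in the first cohort and held no E2F match, are printed too. Capitals mark the E2F matches. In Mcm5 and in Mcm6 a pair of matches on opposite strands overlaps, and the Mcm6 stretch holds a further one.
Orc1 (chr4:108579254-108579453, + strand): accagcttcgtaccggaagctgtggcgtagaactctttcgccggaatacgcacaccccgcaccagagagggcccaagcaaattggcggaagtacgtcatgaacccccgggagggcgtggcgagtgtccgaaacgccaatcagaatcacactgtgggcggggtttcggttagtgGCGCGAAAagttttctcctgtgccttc
Mcm5 (chr8:75109309-75109508, + strand): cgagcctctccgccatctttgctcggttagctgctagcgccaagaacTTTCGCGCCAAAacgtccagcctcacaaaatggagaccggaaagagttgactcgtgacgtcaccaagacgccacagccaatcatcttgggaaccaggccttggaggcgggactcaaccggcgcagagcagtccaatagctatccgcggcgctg
Mcm6 (chr1:128359706-128359905, - strand): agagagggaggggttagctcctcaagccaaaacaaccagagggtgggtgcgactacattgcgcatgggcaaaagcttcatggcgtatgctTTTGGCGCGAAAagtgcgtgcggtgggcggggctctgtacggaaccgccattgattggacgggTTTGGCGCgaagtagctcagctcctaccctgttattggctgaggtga
Pola1 (chrX:93632156-93632355, - strand): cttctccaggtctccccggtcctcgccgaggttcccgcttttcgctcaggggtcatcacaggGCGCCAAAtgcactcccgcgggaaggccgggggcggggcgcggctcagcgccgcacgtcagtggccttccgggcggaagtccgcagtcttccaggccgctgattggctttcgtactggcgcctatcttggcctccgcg
Dtl (chr1:191575545-191575744, - strand): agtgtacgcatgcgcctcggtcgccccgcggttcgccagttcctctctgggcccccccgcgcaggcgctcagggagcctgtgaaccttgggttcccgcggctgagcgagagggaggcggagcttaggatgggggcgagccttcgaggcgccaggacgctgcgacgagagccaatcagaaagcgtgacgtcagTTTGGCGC
Rrm2 (chr12:24708054-24708253, + strand): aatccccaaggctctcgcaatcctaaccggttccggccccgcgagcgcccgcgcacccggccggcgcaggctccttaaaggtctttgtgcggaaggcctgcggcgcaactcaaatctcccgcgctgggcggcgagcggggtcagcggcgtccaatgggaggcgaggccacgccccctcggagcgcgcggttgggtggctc
Tk1 (chr11:117826015-117826214, - strand): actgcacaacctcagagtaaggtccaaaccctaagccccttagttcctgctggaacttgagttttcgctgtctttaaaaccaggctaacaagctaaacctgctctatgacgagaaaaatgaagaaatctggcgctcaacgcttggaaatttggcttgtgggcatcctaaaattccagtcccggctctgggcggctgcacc

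A match is a run of letters, not a bound site, and a window without one does not show that the gene has no E2F site. Some windows, such as that of E2f1, also lie wholly within the gene as annotated. Members with and without one are set side by side without a test. At day 3 against Control the median log2 fold change was 2.15 for the 17 members with a match and 1.63 for the 23 without, with ranges of 0.55 to 4.63 and 0.14 to 3.82. At day 7 against Control the medians with and without a match were 1.75 and 0.71 in UIRI d7, and 1.23 and 0.77 in UIRI+Nx d7. From day 3 to day 7 they were -0.88 and -0.90 in the first cohort, and -0.86 and -0.82 in the second. For UIRI+Nx d7 against UIRI d3 they were -1.37 and -0.98, then -0.91 and -0.83 in the second cohort. For UIRI+Nx d7 against UIRI d7 they were -0.36 and -0.08, then -0.06 and 0.18.

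The 40 labelled libraries held 5090418 to 33362940 counts each. QuantSeq 3′ libraries give about 1 tag per transcript, so levels are CPM, counts divided by the scaled size of the library, with no correction for length, and they are compared between groups and not between genes. The share of mitochondrial counts had a median of 8.27% in Control, 4.20% in UIRI d3, 2.52% in UIRI d7 and 4.80% in UIRI+Nx d7 of the first cohort, and its part in the results was not tested. The strand setting of the counting is not given, and 16 members share exon sequence with another gene, among them Mcm7 with Ap4m1 and Cops6, Lig1 with Zswim9, Orc6 with Vps35, Rfc2 with Lat2, Rfc4 with Eif4a2, Rfc5 with Wsb2, Tk1 with Afmid and Chaf1a with Ubxn6. Pcna and Tyms have named pseudogenes. The overlaps lie on the opposite strand except those of Mcm7 with Mir25 and Mir93 and of Pole2 with Gm49384, and counts of these members are uncertain to that extent. The library labelled as undetermined has no group and entered no comparison.

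Nearly all of the 49 members were higher 3 days after ischemia. In the first cohort 46 of 49 members rose against Control and none fell (edgeR quasi-likelihood test, Benjamini-Hochberg adjusted p under 0.05 over all genes tested), where 17.8% of all genes rose and 14.9% fell. The median log2 fold change of the members was 1.96, against a value near 0 over all 15701 genes, and all 49 were positive. The 3 that did not pass were Pola2, Rfc2 and Slbp. Here and below, passed, rose, fell and called refer to this edgeR test unless DESeq2 is named. For 37 members every UIRI d3 library lay above every Control library, which held for 10.3% of all genes. The summed level of the 49 members was 405 to 557 (median 479) CPM in Control and 1449 to 1865 (median 1704) CPM at day 3, and the groups did not overlap.

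At day 7 the members had come part of the way back. Against Control 33 rose and 1 fell in UIRI d7, against 21.5% and 18.1% of all genes, and the median of the members was 1.07 on the log2 scale. In UIRI+Nx d7, 31 rose and 1 fell, against 17.3% and 14% of all genes, and the median was 0.95. The member that fell both times was Mcm10. Every library lay above every Control library for 19 members in UIRI d7 (10.9% of all genes) and for 17 in UIRI+Nx d7 (9.74%). These 3 comparisons share the Control libraries, and their values are given side by side. The summed level was 803 to 1196 (median 903) CPM in UIRI d7 and 651 to 955 (median 794) CPM in UIRI+Nx d7, between the Control and day 3 libraries in every case.

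The step from day 3 to day 7 went down in both cohorts, which share no library. In the first cohort 18 members fell and none rose, against 1.36% and 1.24% of all genes, and the median of the log2 fold changes was -0.90. In the second 28 fell and none rose, against 4.05% and 4.51%, and the median was -0.84. All 49 were negative in each cohort. In the first cohort DESeq2 also called members lower that did not pass with edgeR, among them Mcm7, Cdc45, Lig1, Pole, E2f1 and Ccne2. Without UIRI d7 replicate 2 or 3 the first cohort's count was 10 or 11. Every UIRI d7 library lay below every UIRI d3 library for 13 members in the first cohort (1.38% of all genes) and 23 in the second (2.6%). UIRI+Nx d7 against UIRI d3 called 30 members lower and none higher in the first cohort (3.06% and 2.06% of all genes) and 20 lower and none higher in the second (3.04% and 2.97%), with no overlap between the groups for 22 (2.24%) and 20 (3.74%). The count of 30 became 19 without UIRI+Nx d7 replicate 3, and the second cohort's 20 became 14 without UIRI+Nx d7 replicate 4. The summed level in the second cohort was 1409 to 1704 (median 1565) CPM at day 3, 875 to 1175 (median 924) at day 7, and 960.2 to 1049 in the 4 libraries at day 7 after nephrectomy.

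**Figure D1:**
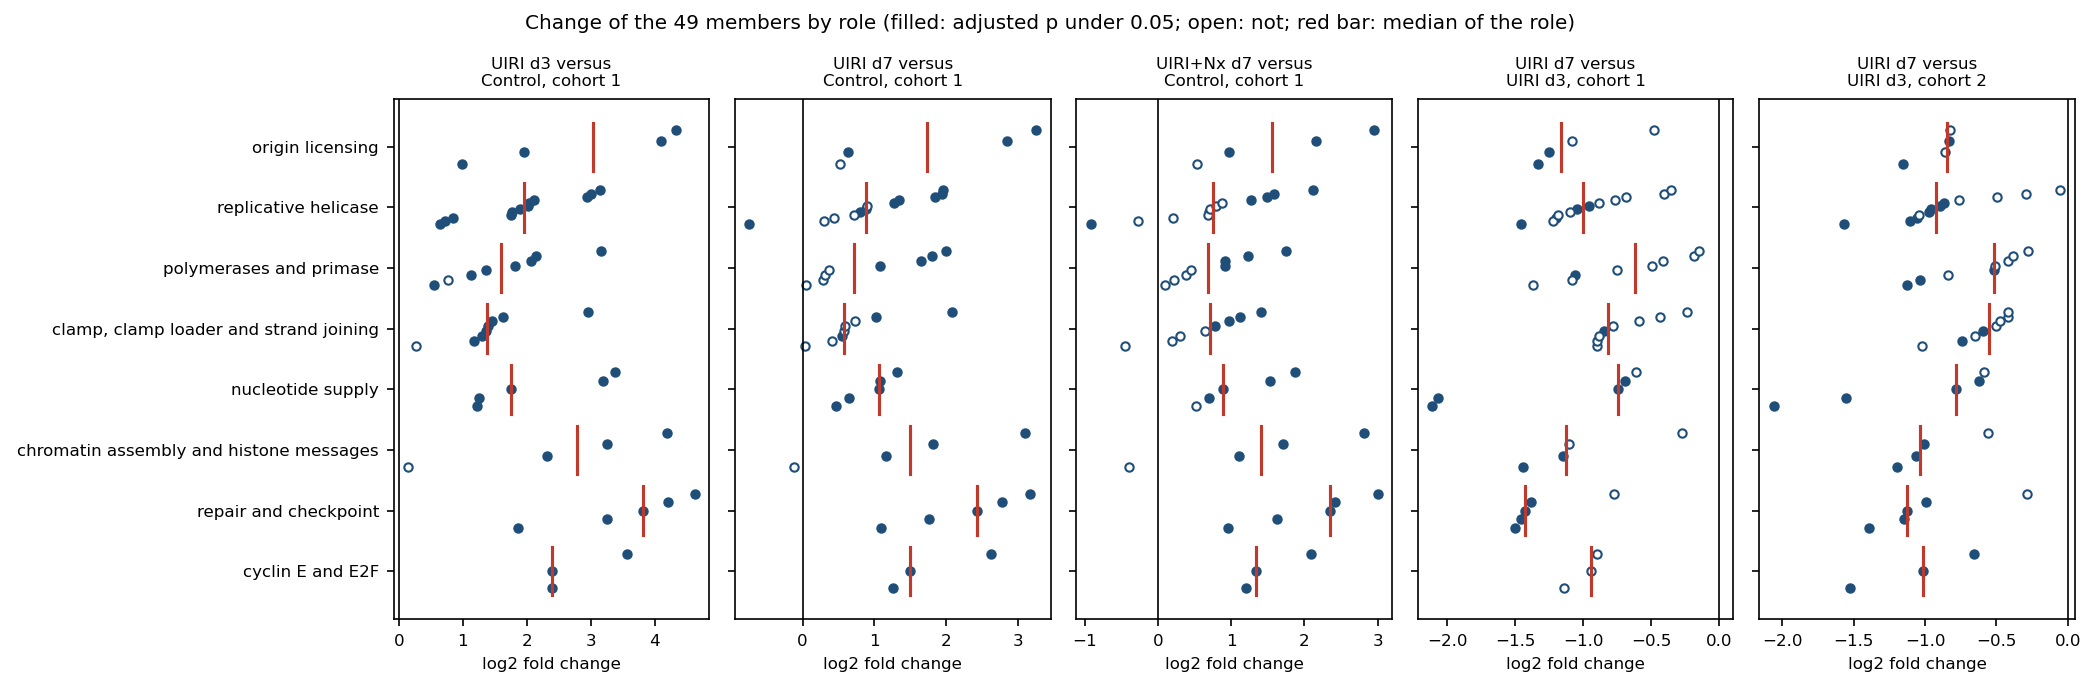
Log2 fold change of each member in 5 comparisons (one panel each, x axis), with members in rows by their role in replication. Filled points passed the edgeR test, open points did not, and the red bar is the median of the role. At day 3 all points lie to the right of 0, and from day 3 to day 7 all lie to the left in both cohorts.

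The 8 roles had the same order in time and different sizes of change: the median of every role was above 0 at day 3 against Control and below 0 from day 3 to day 7. At day 3 the largest median log2 fold changes belonged to repair and checkpoint genes (3.82, 5 of 5 rose), origin licensing genes (3.03, 4 of 4) and chromatin assembly genes (2.79, 3 of 4). Helicase genes had a median of 1.96 (12 of 12), nucleotide genes 1.75 (5 of 5), polymerase and primase genes 1.59 (7 of 8) and clamp and joining genes 1.38 (7 of 8). The 3 cyclin E and E2F genes had a median of 2.40 (3 of 3). From day 3 to day 7 the same medians in the first cohort were -1.43 for repair, -1.17 for licensing, -1.13 for chromatin assembly, -1.0 for helicase, -0.75 for nucleotide, -0.62 for polymerase, -0.81 for clamp and -0.94 for cyclin E and E2F genes. In the second cohort they were -1.13, -0.85, -1.04, -0.93, -0.78, -0.51, -0.55 and -1.02 in that order. Of the nucleotide genes 4 of 5 fell in each cohort, of the repair genes 4 of 5, of the polymerase genes 1 of 8 and 3 of 8, and of the clamp genes 1 of 8 and 2 of 8. In the first cohort DESeq2 called the polymerase genes Prim1, Prim2 and Pole and the clamp genes Pcna, Rfc4 and Lig1 lower. In the second it called Pola1, Pole and Prim1, and Pcna, Rfc3, Rfc4, Rfc5 and Fen1. The counts of these roles therefore depend on the test used. Differences between roles were not tested, and each role holds few genes. Some members of the roles with the largest rises were near 0 in Control, where a small difference in CPM gives a large log2 fold change. Among them, Brca1 was at 0.0807 to 0.765 CPM and Exo1 at 0.0865 to 0.571, while Cdt1, Orc6 and Ung were higher.

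The 4 origin licensing members are Orc1 and Orc6, subunits of the origin recognition complex, and Cdc6 and Cdt1, which load the helicase ring. Cdt1 was at 8.26 to 15.5 CPM (median 14.1) in the 6 Control libraries and at 37.7 to 60.5 (median 51.3) at day 3. All day 3 libraries lay above all Control libraries, with a log2 fold change of 1.96 ± 0.22 (SE; adjusted p = 9.3e-08). Cdt1 was at 9.30 to 25.5 (median 21.2) at day 7 and at 16.9 to 33.6 (median 23.8) at day 7 after nephrectomy. Both sets lay wholly below day 3. The UIRI d7 libraries reached down into the Control range, and the nephrectomy libraries did not. The log2 fold change from day 3 to day 7 was -1.33 ± 0.22 (SE; adjusted p = 5.9e-04). Cdt1 in the second cohort went from 41.1 to 55.0 (median 47.1) to 19.5 to 33.7 (median 26.7), again without overlap, a log2 fold change of -0.83 ± 0.13 (SE; adjusted p = 3.4e-04). Its 4 libraries after nephrectomy read 23.3, 24.3, 25.7 and 26.8, also below all day 3 libraries.

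Orc6 had a smaller rise. It was at 3.52 to 8.04 CPM (median 5.51) in Control, 6.09 to 14.5 (median 10.7) at day 3, 2.75 to 11.1 (median 7.97) at day 7 and 4.91 to 11.4 (median 8.24) at day 7 after nephrectomy, and all groups overlapped. The day 3 rise passed the test with a log2 fold change of 0.99 ± 0.30 (SE; adjusted p = 0.0107), and no later comparison did. Orc6 in the second cohort was at 5.69 to 15.3 (median 11.7), then 2.62 to 8.18 (median 7.00), and read 4.63, 5.61, 8.87 and 13.6 after nephrectomy. Orc1 and Cdc6 had far larger log2 fold changes at day 3, 4.33 and 4.10, from levels near 0. Orc1 was at 0 to 0.17 CPM in Control and 1.35 to 2.23 at day 3. Cdc6 was at 0.0865 to 0.724 CPM in Control and 6.24 to 10.7 at day 3. Cdc6 fell from day 3 to day 7 in both cohorts (-1.25 and -1.15). Orc1, at -1.08 and -0.86, passed in neither.

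The 12 helicase members are Mcm2 to Mcm7, which form the ring, Cdc45 and Gins1 to Gins4, which activate it, and Mcm10, which helps the active helicase leave the origin. Mcm7 was at 15.2 to 28.6 CPM (median 18.5) in Control and 59.1 to 97.6 (median 86.0) at day 3, with no overlap. It was at 33.6 to 84.3 (median 49.1) at day 7 and 28.9 to 45.5 (median 30.5) after nephrectomy. Both day 7 groups lay above Control, and only the nephrectomy libraries lay wholly below day 3. Its log2 fold change was 2.03 ± 0.21 (SE; adjusted p = 2.4e-08) at day 3 against Control, and from day 3 to day 7 it was -0.68 ± 0.20 (SE; adjusted p = 0.0700), which did not pass. The second cohort gave 72.4 to 101 (median 85.3) at day 3 and 35.7 to 58.0 (median 42.7) at day 7, without overlap, with a log2 fold change of -0.96 ± 0.14 (SE; adjusted p = 2.3e-04). The libraries after nephrectomy read 48.0, 50.3, 62.1 and 70.6.

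Mcm6 showed the same order with more spread. Its levels were 13.1 to 26.3 CPM (median 16.6) in Control, 33.7 to 88.7 (median 66.2) at day 3, 13.8 to 49.6 (median 35.1) at day 7 and 15.7 to 44.9 (median 31.0) after nephrectomy. The day 3 libraries were all above Control, and both day 7 groups overlapped day 3 as well as Control. The log2 fold change at day 3 was 1.77 ± 0.28 (SE; adjusted p = 1.8e-05). Mcm6 in the second cohort fell from 52.0 to 77.0 (median 57.8) to 27.9 to 38.6 (median 31.9) with no overlap (-0.89 ± 0.13 SE, adjusted p = 1.7e-04), and the libraries after nephrectomy read 27.9, 27.9, 29.3 and 39.6. Mcm3 and Mcm5 rose most among the ring subunits at day 3, by 3.01 and 3.14 on the log2 scale, and both fell in both cohorts from day 3 to day 7 (-1.05 and -1.20 in the first, -0.87 and -0.97 in the second).

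Mcm10 is the member that went below its Control level at day 7. Its Control libraries held 4.07 to 8.77 CPM (median 7.20), and the day 3 libraries 7.08 to 13.6 (median 11.4), so that the groups overlapped although the rise passed the test (0.72 ± 0.23 SE, adjusted p = 0.0171). At day 7 it was at 3.27 to 4.94 (median 4.07), and after nephrectomy at 1.70 to 5.20 (median 3.59). Both groups lay wholly below day 3 and below 5 of the 6 Control libraries. Against Control Mcm10 fell by 0.74 on the log2 scale in UIRI d7 (adjusted p = 0.0129) and by 0.92 in UIRI+Nx d7 (adjusted p = 0.00347). The second cohort, which has no Control, held 7.03 to 13.2 (median 9.07) at day 3, 3.83 to 5.80 (median 4.45) at day 7 and 2.96, 3.24, 5.67 and 6.43 after nephrectomy. The log2 fold change from day 3 to day 7 was -1.46 ± 0.24 (SE; adjusted p = 5.9e-04) in the first cohort and -1.06 ± 0.21 (SE; adjusted p = 0.00342) in the second.

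The GINS subunits had unequal rises. Gins2 rose by 2.94 on the log2 scale at day 3 and Gins1 by 2.11, while Gins3 rose by 0.84 and Gins4 by 0.64. Gins4 was at 14.4 to 17.9 CPM (median 15.9) in Control and 21.2 to 29.1 (median 25.1) at day 3, a small difference without overlap. It was at 15.9 to 23.2 (median 20.1) at day 7, which overlapped both. From day 3 to day 7 none of the 4 GINS genes passed in either cohort with edgeR, and DESeq2 called Gins1 lower in the second (-1.05, adjusted p = 0.0307). Gins2 had the widest gap between cohorts in that step, -1.10 against -0.05, and the difference between cohorts did not pass in the edgeR interaction test. In the second cohort Gins2 was at 15.1 to 34.8 CPM at day 3. Its UIRI d7 replicates 1 and 2 read 10.3 and 9.88, and replicates 3 to 6 read 19.5 to 30.4. The former share inferred library block 2a with all the day 3 libraries, and the latter are block 2c (blocks are described below). The pooled value of -0.05 thus mixes 2 blocks that differed. Cdc45 was at -1.19 in the first cohort, which did not pass, and fell by 1.57 in the second, and its difference between cohorts did not pass either.

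**Figure D2:**
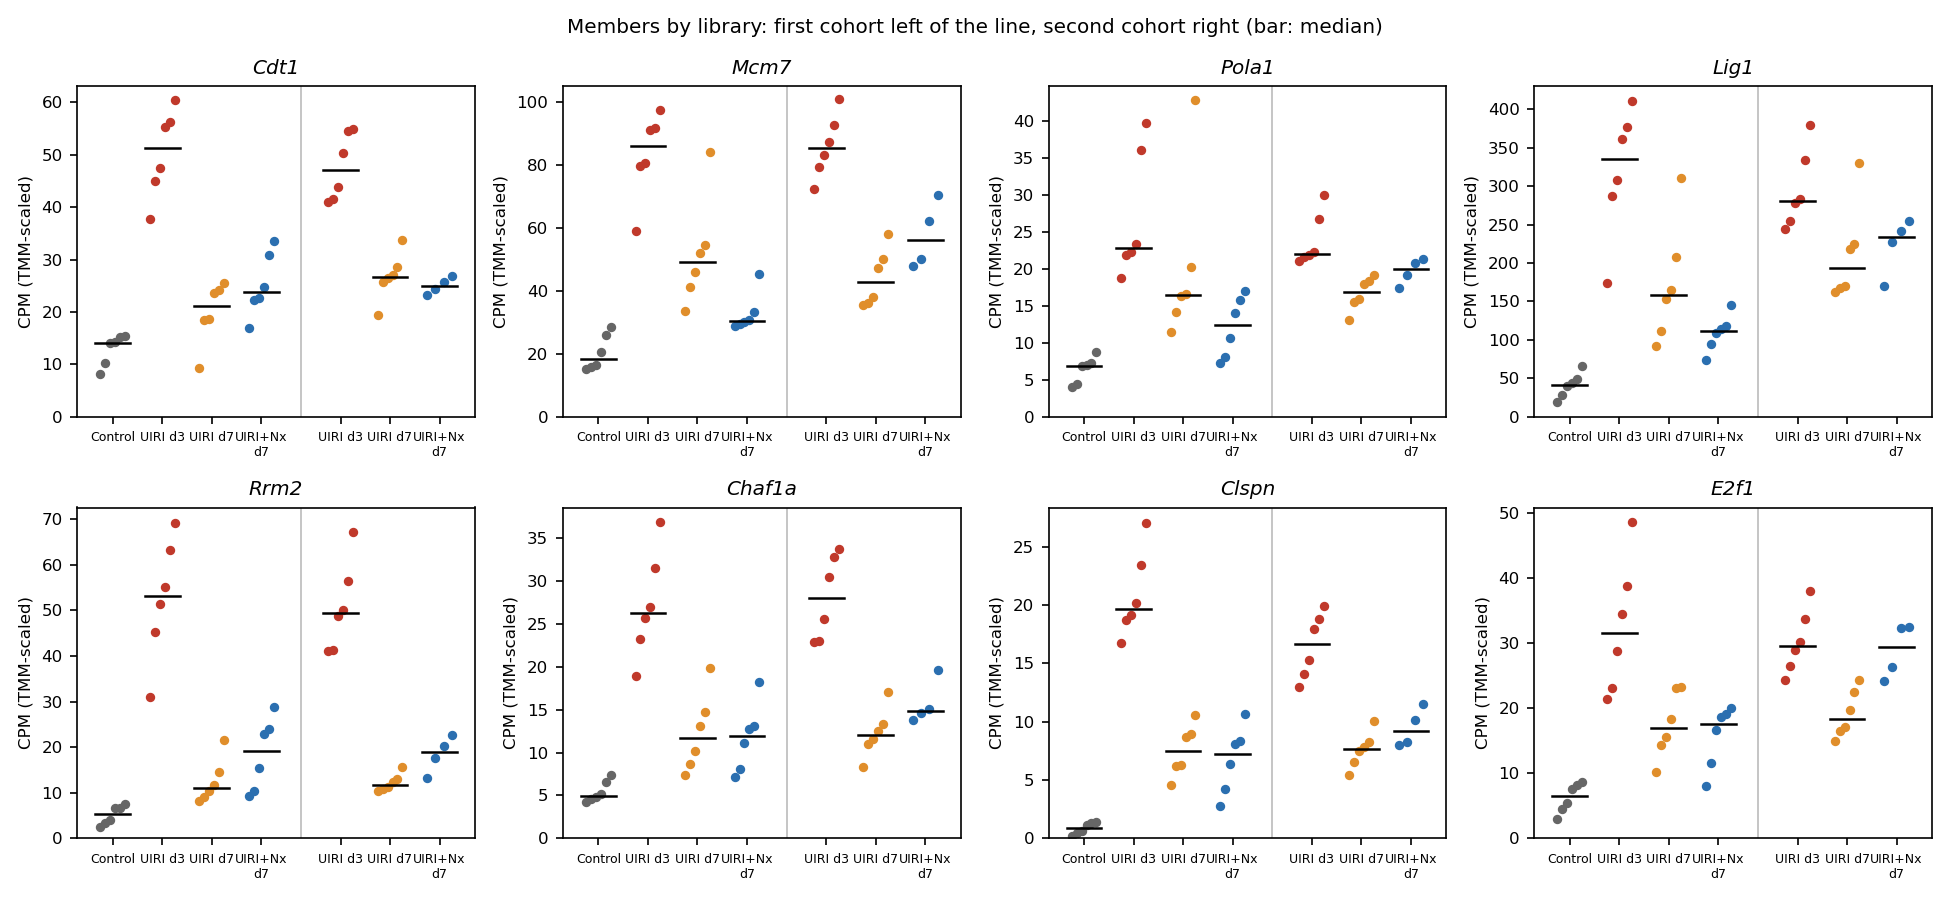
Scaled CPM (y axis) of 8 members, 1 per role, in each library of the 7 groups (x axis, with the first cohort left of the line and the second right). Each point is a library and each bar the group median. The day 3 points are the highest for nearly all of these genes, and single UIRI d7 libraries stand above the rest of their group for Pola1 in the first cohort and Lig1 in the second.

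The 8 polymerase members are Pola1 and Pola2, subunits of polymerase alpha, its primase subunits Prim1 and Prim2, Pold1 and Pold3 of polymerase delta, which copies the lagging strand, and Pole and Pole2 of polymerase epsilon, which copies the leading strand. Pola1 was at 4.07 to 8.82 CPM (median 6.94) in Control and at 18.7 to 39.7 (median 22.8) at day 3, all above Control. At day 7 it was at 11.5 to 42.8 (median 16.4), with 1 library at the upper end far from the others, and at 7.29 to 17.0 (median 12.4) after nephrectomy. The UIRI d7 libraries stayed above all Control libraries, and the nephrectomy libraries lay below all day 3 libraries. Its log2 fold change was 2.07 ± 0.30 (SE; adjusted p = 4.7e-06) at day 3 and -0.41 ± 0.29 (SE; adjusted p = 0.591) from day 3 to day 7. Pola1 in the second cohort went from 21.1 to 30.0 (median 22.1) to 13.1 to 19.2 (median 16.9), without overlap (-0.52 ± 0.13 SE, adjusted p = 0.0169), and read 17.5, 19.2, 20.9 and 21.4 after nephrectomy.

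Pold1, the catalytic subunit of polymerase delta, had the value nearest 0 of all members in that step in the first cohort. It was at 3.47 to 5.41 CPM (median 4.18) in Control, 15.1 to 27.2 (median 17.6) at day 3 and 9.55 to 27.3 (median 16.1) at day 7, and 3 of the 6 UIRI d7 libraries lay below all day 3 libraries. The step from day 3 to day 7 was -0.14 ± 0.24 (SE; adjusted p = 0.873), with a 95% interval of -0.63 to 0.34, and in the second cohort it was -0.28 with an interval of -0.69 to 0.13. After nephrectomy in the first cohort Pold1 was at 7.91 to 13.5 (median 9.13), wholly below day 3. Pole, the catalytic subunit of polymerase epsilon, rose by 3.17 on the log2 scale at day 3, from 0 to 1.19 (median 0.963) to 4.83 to 9.95 (median 7.04) CPM. It was at 0.618 to 5.28 (median 3.02) at day 7, -1.37 on the log2 scale, which did not pass, and it fell by 1.03 in the second cohort.

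Pold3 had small changes, and Pola2 had low levels throughout. Pold3 was at 13 to 20.3 CPM (median 16.4) in Control, 18.3 to 28.2 (median 24.7) at day 3, 16.0 to 24.6 (median 21.3) at day 7 and 13.3 to 21.8 (median 17.6) after nephrectomy, with overlap throughout. With edgeR it passed only at day 3 against Control (0.55 ± 0.17 SE, adjusted p = 0.0111), and DESeq2 also called it lower in UIRI+Nx d7 than in UIRI d3 of the first cohort (-0.47, adjusted p = 0.0492). The second cohort held 18.8 to 23.7 (median 20.8), 11.3 to 18.8 (median 15.5) and, after nephrectomy, 10.5, 16.8, 17.6 and 18.8. Pola2 was a low gene at 1.11 to 4.08 CPM (median 3.02) in Control, 1.72 to 7.23 (median 5.04) at day 3, 0.115 to 5.95 (median 3.31) at day 7 and 1.70 to 5.65 (median 3.53) after nephrectomy. No comparison of Pola2 passed with edgeR or DESeq2, and its day 3 value was 0.77 ± 0.47 (SE; adjusted p = 0.220). Pola2 in the second cohort held 3.52 to 6.87 (median 4.66) at day 3, 1.87 to 8.04 (median 3.23) at day 7 and 1.5, 1.56, 2.0 and 5.92 after nephrectomy.

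The 8 clamp and joining members are the clamp Pcna, the clamp loader subunits Rfc2 to Rfc5, the flap nuclease Fen1, DNA ligase Lig1 and the single-strand binding subunit Rpa2. Lig1 was at 19.2 to 65.9 CPM (median 41.9) in Control and 174 to 411 (median 335) at day 3. At day 7 it was at 92.2 to 311 (median 159) and after nephrectomy at 73.7 to 146 (median 112). All 3 injured groups lay above Control, and only the nephrectomy group lay wholly below day 3. The day 3 log2 fold change was 2.96 ± 0.30 (SE; adjusted p = 1.5e-08), and the step to day 7 was -0.88 ± 0.28 (SE; adjusted p = 0.0935). The second cohort held 244 to 379 (median 280.3), then 162 to 330.2 (median 194) with overlap (-0.48 ± 0.17 SE, adjusted p = 0.0900), and 169.6, 227, 241 and 255 after nephrectomy. Pcna rose by 1.40 on the log2 scale at day 3 and fell in both cohorts from day 3 to day 7 (-0.85 and -0.74).

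Rpa2 was at 34.6 to 67.6 CPM (median 47.0) in Control, 68.4 to 186 (median 116) at day 3, 47.8 to 128 (median 63.9) at day 7 and 40.4 to 79.6 (median 54.7) after nephrectomy. The day 3 libraries were clear of Control, with a log2 fold change of 1.37 ± 0.25 (SE; adjusted p = 9.3e-05), and both day 7 groups overlapped it. Rpa2 in the second cohort held 75.1 to 109 (median 89.9), 49.2 to 85.4 (median 71.5) and 51.8, 58.3, 72.2 and 79.6. Rfc2, a clamp loader subunit, passed in no comparison with edgeR. It was at 41.0 to 86.9 CPM (median 56.6) in Control, 54.1 to 95.6 (median 68.9) at day 3, 36.0 to 109.7 (median 48.1) at day 7 and 33.7 to 51.3 (median 42.4) after nephrectomy, and its day 3 value was 0.27 ± 0.22 (SE; adjusted p = 0.383). The nephrectomy libraries of Rfc2 lay below all day 3 libraries, and DESeq2 called that difference (-0.74, adjusted p = 0.0318). The second cohort held 60.6 to 93.9 (median 81.9), 45.3 to 83.9 (median 58.1) and 49.8, 66.5, 68.5 and 70.8, again with overlap. Rfc3, Rfc4 and Rfc5 rose by 1.46, 1.31 and 1.17 on the log2 scale.

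Rrm2 and Tk1, both nucleotide genes, had the largest falls of the first cohort from day 3 to day 7, while the median of the role (-0.75 and -0.78 in the cohorts) was a smaller fall than that of the repair members. The 5 nucleotide members are Rrm1 and Rrm2, subunits of the reductase that makes deoxynucleotides, thymidine kinase Tk1, thymidylate synthase Tyms, and Dut, which removes dUTP. Rrm2 was at 2.41 to 7.59 CPM (median 5.26) in Control and 31.1 to 69.2 (median 53.2) at day 3. It was at 8.29 to 21.6 (median 11) at day 7 and 9.19 to 28.8 (median 19.1) after nephrectomy. Both day 7 groups lay between Control and day 3 without touching either. The log2 fold change was 3.38 ± 0.33 (SE; adjusted p = 8.4e-09) at day 3 against Control and -2.07 ± 0.31 (SE; adjusted p = 3.0e-04) from day 3 to day 7. The second cohort gave 41.0 to 67.2 (median 49.4) at day 3, 10.5 to 15.6 (median 11.7) at day 7 and 13.2, 17.6, 20.3 and 22.6 after nephrectomy, a log2 fold change of -2.06 ± 0.16 (SE; adjusted p = 2.2e-07) from day 3 to day 7.

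Tk1, which salvages thymidine, fell by 2.11 on the log2 scale in the first cohort (adjusted p = 6.1e-06) and by 1.55 in the second (adjusted p = 3.7e-04). Its levels were 1.53 to 3.77 CPM (median 2.27) in Control, 15.9 to 25.5 (median 23.4) at day 3, 2.98 to 6.42 (median 5.24) at day 7 and 5.49 to 8.20 (median 7.08) after nephrectomy, with both day 7 groups wholly below day 3. Tk1 in the second cohort held 11.6 to 25.5 (median 18.3), 4.45 to 8.80 (median 6.09) and 4.99, 9.03, 9.68 and 11.6. The partner subunit Rrm1 rose by 1.75 at day 3 and fell by 0.69 and 0.78 in the cohorts. Dut was at 24.1 to 53.0 CPM (median 27.4) in Control, 46.2 to 99.2 (median 77.1) at day 3, 25.4 to 66.6 (median 53.3) at day 7 and 27.7 to 65.9 (median 45.3) after nephrectomy, with overlap between all groups. It rose against Control at day 3 (1.25 ± 0.25 SE, adjusted p = 2.4e-04) and at day 7 (0.64), and the step from day 3 to day 7 did not pass (-0.61 and -0.59). The second cohort held 48.8 to 100 (median 83.4), 41.6 to 75.8 (median 52.0) and 30.6, 31.9, 53.4 and 79.0 for Dut.

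Chromatin assembly members are Chaf1a and Chaf1b, subunits of the chaperone that places histones on new DNA, Uhrf1, which helps copy DNA methylation, and Slbp, which binds histone messages. Chaf1b was at 0.865 to 3.17 CPM (median 2.51) in Control and 11.7 to 44.2 (median 17.7) at day 3, far apart, with a log2 fold change of 3.26 ± 0.38 (SE; adjusted p = 1.8e-07). At day 7 it was at 3.71 to 17.0 (median 7.83) and after nephrectomy at 4.72 to 12.6 (median 7.10), both above Control. The step to day 7 was -1.44 ± 0.35 (SE; adjusted p = 0.0234), and in the second cohort, from 11.8 to 19.7 (median 15.8) to 6.31 to 11 (median 7.49) without overlap, it was -1.01 ± 0.17 (SE; adjusted p = 0.00101). After nephrectomy Chaf1b read 5.99, 6.23, 7.74 and 10.2 there.

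Chaf1a was at 4.20 to 7.44 CPM (median 4.99) in Control, 18.9 to 37.0 (median 26.3) at day 3, 7.42 to 19.9 (median 11.7) at day 7 and 7.15 to 18.3 (median 12) after nephrectomy. Day 3 was clear of Control (2.32 ± 0.25 SE, adjusted p = 6.2e-08), and its lowest library fell just inside the UIRI d7 range. Chaf1a in the second cohort held 22.9 to 33.8 (median 28.1), 8.32 to 17.0 (median 12.1) and 13.8, 14.6, 15.0 and 19.6, with both day 7 groups below day 3. Uhrf1 had one of the larger rises at day 3, 4.20 on the log2 scale. Slbp passed in no comparison with edgeR or DESeq2, at 3.15 to 9.09 CPM (median 4.10) in Control, 1.68 to 6.77 (median 5.62) at day 3, 2.94 to 6.43 (median 4.32) at day 7 and 1.87 to 4.98 (median 3.28) after nephrectomy, with a day 3 value of 0.14 ± 0.30 (SE; adjusted p = 0.770). The second cohort held 3.75 to 8.03 (median 6.08), 1.80 to 6.10 (median 4.42) and 3.70, 3.74, 5.08 and 6.98 for Slbp.

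Repair and checkpoint members had the largest median change at day 3. They are the uracil glycosylase Ung, the recombination factor Brca1, the nuclease Exo1, claspin (Clspn), which carries the checkpoint signal at the fork, and Dtl, which targets Cdt1 for destruction in S phase. Clspn was low in Control at 0.173 to 1.36 CPM (median 0.893) and at 16.7 to 27.0 (median 19.7) at day 3. It was at 4.58 to 10.6 (median 7.49) at day 7 and 2.80 to 10.6 (median 7.23) after nephrectomy. All injured groups were clear of Control, and both day 7 groups were clear of day 3. The log2 fold change was 4.63 ± 0.36 (SE; adjusted p = 2.4e-10) at day 3, the largest of the 49 in that comparison, and -1.45 ± 0.31 (SE; adjusted p = 0.00836) from day 3 to day 7. The second cohort gave 12.9 to 19.9 (median 16.7), then 5.45 to 10.0 (median 7.64) (-1.13 ± 0.17 SE, adjusted p = 2.4e-04), and 7.98, 8.23, 10.2 and 11.5 after nephrectomy.

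Dtl went from 0.432 to 3.65 CPM (median 1.75) in Control to 12.5 to 21.4 (median 17.7) at day 3, 4.92 to 7.78 (median 5.49) at day 7 and 2.7 to 7.82 (median 5.52) after nephrectomy, with the day 7 groups below day 3. Its step from day 3 to day 7 was -1.51 ± 0.30 (SE; adjusted p = 0.00493) in the first cohort and -1.39 ± 0.21 (SE; adjusted p = 3.4e-04) in the second. Ung had the smallest day 3 log2 fold change of the 5 repair members. It was at 2.58 to 10.6 CPM (median 6.26) in Control, 14.9 to 32.5 (median 23.5) at day 3, 6.77 to 18 (median 14.2) at day 7 and 9.98 to 15.5 (median 12.5) after nephrectomy, with a day 3 log2 fold change of 1.87 ± 0.27 (SE; adjusted p = 5.5e-06). Ung in the second cohort was at 14.2 to 26.5 (median 20.0) and then 13.2 to 18.2 (median 17.7), which overlapped, and read 11.1, 11.5, 12.3 and 12.8 after nephrectomy. Those 4 libraries lay below all UIRI d7 libraries, and the difference did not pass (-0.48 ± 0.18 SE, adjusted p = 0.138). It was the single member with no overlap in that comparison, where 3.02% of all genes lay wholly below and 3.03% wholly above.

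Cyclin E and E2F members drive entry into S phase. E2f1 was at 2.99 to 8.72 CPM (median 6.46) in Control and 21.4 to 48.6 (median 31.7) at day 3, then 10.2 to 23.3 (median 16.9) at day 7 and 8.00 to 20.1 (median 17.7) after nephrectomy. Day 3 and UIRI d7 were clear of Control, and the nephrectomy group was clear of day 3 but not of Control. The log2 fold change was 2.39 ± 0.28 (SE; adjusted p = 2.2e-07) at day 3, and the step to day 7 was -0.90 ± 0.27 (SE; adjusted p = 0.0741). Ccne1 was at 0.173 to 1.13 CPM (median 0.389) in Control, 4.55 to 8.31 (median 6.35) at day 3, 0.918 to 5.73 (median 3.05) at day 7 and 0.681 to 4.35 (median 2.06) after nephrectomy, with a day 3 value of 3.57 ± 0.46 (SE; adjusted p = 7.9e-07). Ccne1 in the second cohort held 4.20 to 7.59 (median 6.43), 2.14 to 5.02 (median 2.79) and 1.28, 1.87, 2.59 and 3.10. Ccne2, the other cyclin E gene, rose by 2.40 on the log2 scale at day 3 and then stood at -1.14 from day 3 to day 7 in the first cohort, which did not pass, and fell by 1.52 in the second.

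The day 3 to day 7 step was set side by side for both cohorts, which share no library and were aligned to different genome builds. They may not be technically separate. By the sheet numbers in the column names, inferred block 2b of the first cohort falls between blocks 2a and 2c of the second. Block 2b holds 3 UIRI d3 libraries of the first cohort. Whether these blocks were prepared or sequenced together is not given. Of the 18 members that fell in the first cohort, 17 (94.4%) also fell in the second, and these are 60.7% of the 28 that fell there. Across the 49 members the log2 fold changes had a Pearson r of 0.77 and a Spearman rho of 0.78, as a description, since the members share libraries within a cohort. Tk1 and Rrm2 were lowest in the first cohort, and Rrm2, Cdc45 and Tk1 in the second. A test of the difference between cohorts, in a joint edgeR fit of 16606 genes, called 0 of 49 members, with 1 at an unadjusted p under 0.05, and called no gene of the whole table (0%). DESeq2 was not run for it. The same held for UIRI+Nx d7 against UIRI d3 (0 called, 6 at an unadjusted p under 0.05) and for UIRI+Nx d7 against UIRI d7 (0 called, 5 unadjusted).

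**Figure D3:**
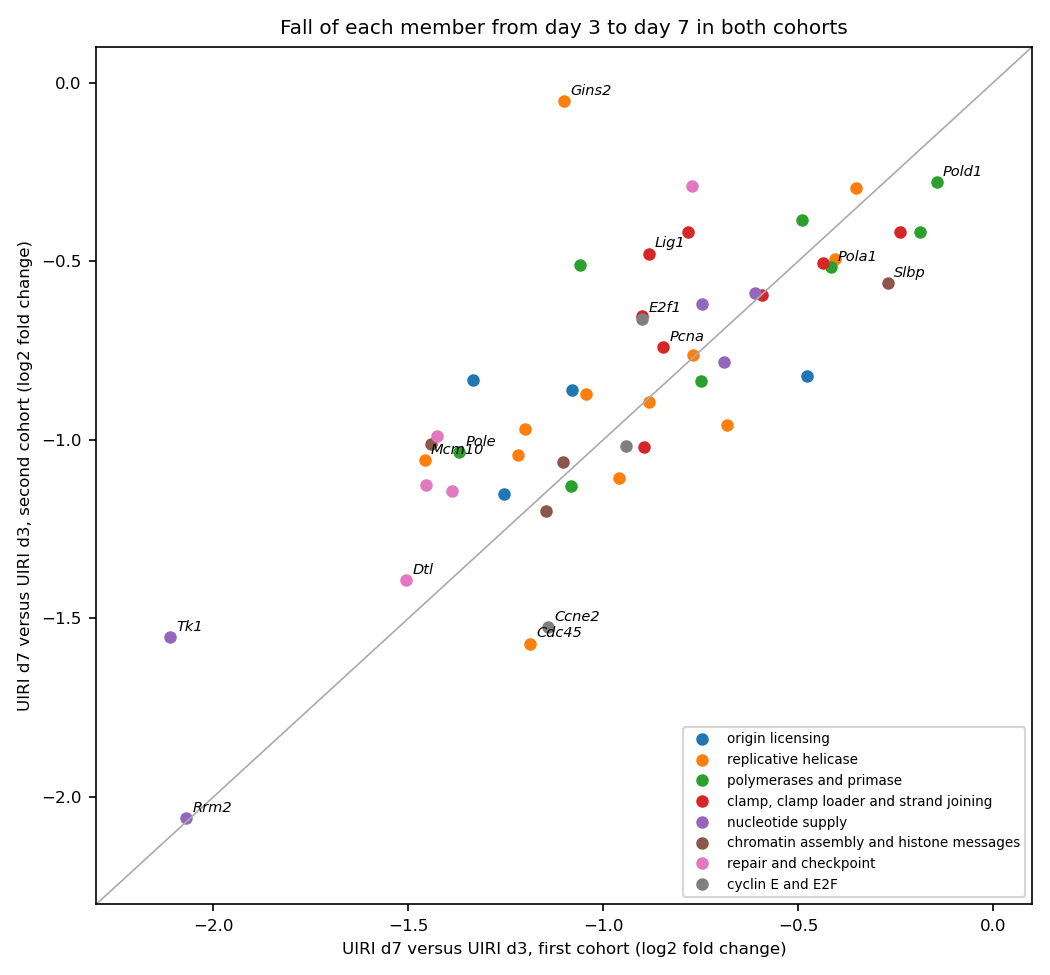
Log2 fold change of UIRI d7 against UIRI d3 for each of the 49 members, in the first cohort (x axis) and the second (y axis), coloured by role. The line marks equal values. All points lie below 0 on both axes, Rrm2 and Tk1 at the far lower left and Pold1 near 0.

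Nephrectomy was compared with UIRI alone at day 7, and the members' values fell on both sides of 0. In the first cohort UIRI+Nx d7 against UIRI d7 called 0 of 49 members with edgeR, against 3.17% of all genes higher and 3.46% lower, with 9 at an unadjusted p under 0.05. DESeq2 called 2, Mcm7 and Pold1, both lower. The groups overlapped for every member, where 1.56% of all genes lay wholly above and 1.45% wholly below. The median log2 fold change was -0.13. The second cohort called 1 of 49, higher, against 2.58% of all genes higher and 2.66% lower, with 5 at an unadjusted p under 0.05, and DESeq2 called 2, E2f1 and Rrm2, both higher. The median was 0.07. The signs were the same in both cohorts for 23 members and opposite for 26. These counts do not show that nephrectomy had no effect. The median half-width of the 95% interval was 0.60 on the log2 scale in the first cohort and 0.48 in the other, and the interval lay within ±1 for 32 and 38 members.

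E2f1 was the called member. Its second cohort libraries held 24.4 to 38.1 (median 29.6) CPM at day 3 and 15.0 to 24.3 (median 18.4) at day 7, and read 24.2, 26.4, 32.4 and 32.6 after nephrectomy. Of the nephrectomy libraries 3 of 4 lay in the day 3 range, and the lowest just reached the top of the UIRI d7 range. The difference was 0.59 ± 0.16 (SE; adjusted p = 0.0372). It was called neither within library blocks 2a and 2c nor in a fit of only these groups nor with no filter on low counts, and also not without UIRI+Nx d7 replicates 2 or 3 or without UIRI d7 replicates 1, 2, 3 or 5. In the first cohort the same comparison gave -0.15 ± 0.27 (SE; adjusted p = 0.822), and the difference between cohorts did not pass (adjusted p = 0.576). Mcm7 had opposite signs, -0.65 and 0.39, neither called, and a difference between cohorts of 1.05 with an adjusted p of 0.443.

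Tk1 and Rrm2 had positive values in both cohorts without passing. Tk1 was at 0.45 in the first (95% interval 0.01 to 0.89) and 0.49 in the second (-0.07 to 1.05). Rrm2 was at 0.56 (-0.06 to 1.18) and 0.59 (0.23 to 0.96), with adjusted p = 0.298 and 0.0547 by edgeR. In each comparison the libraries of both groups overlapped. Pold1 was the lowest member of the first cohort in this comparison, at -0.77 (-1.26 to -0.27), and 0.04 in the second.

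**Figure D4:**
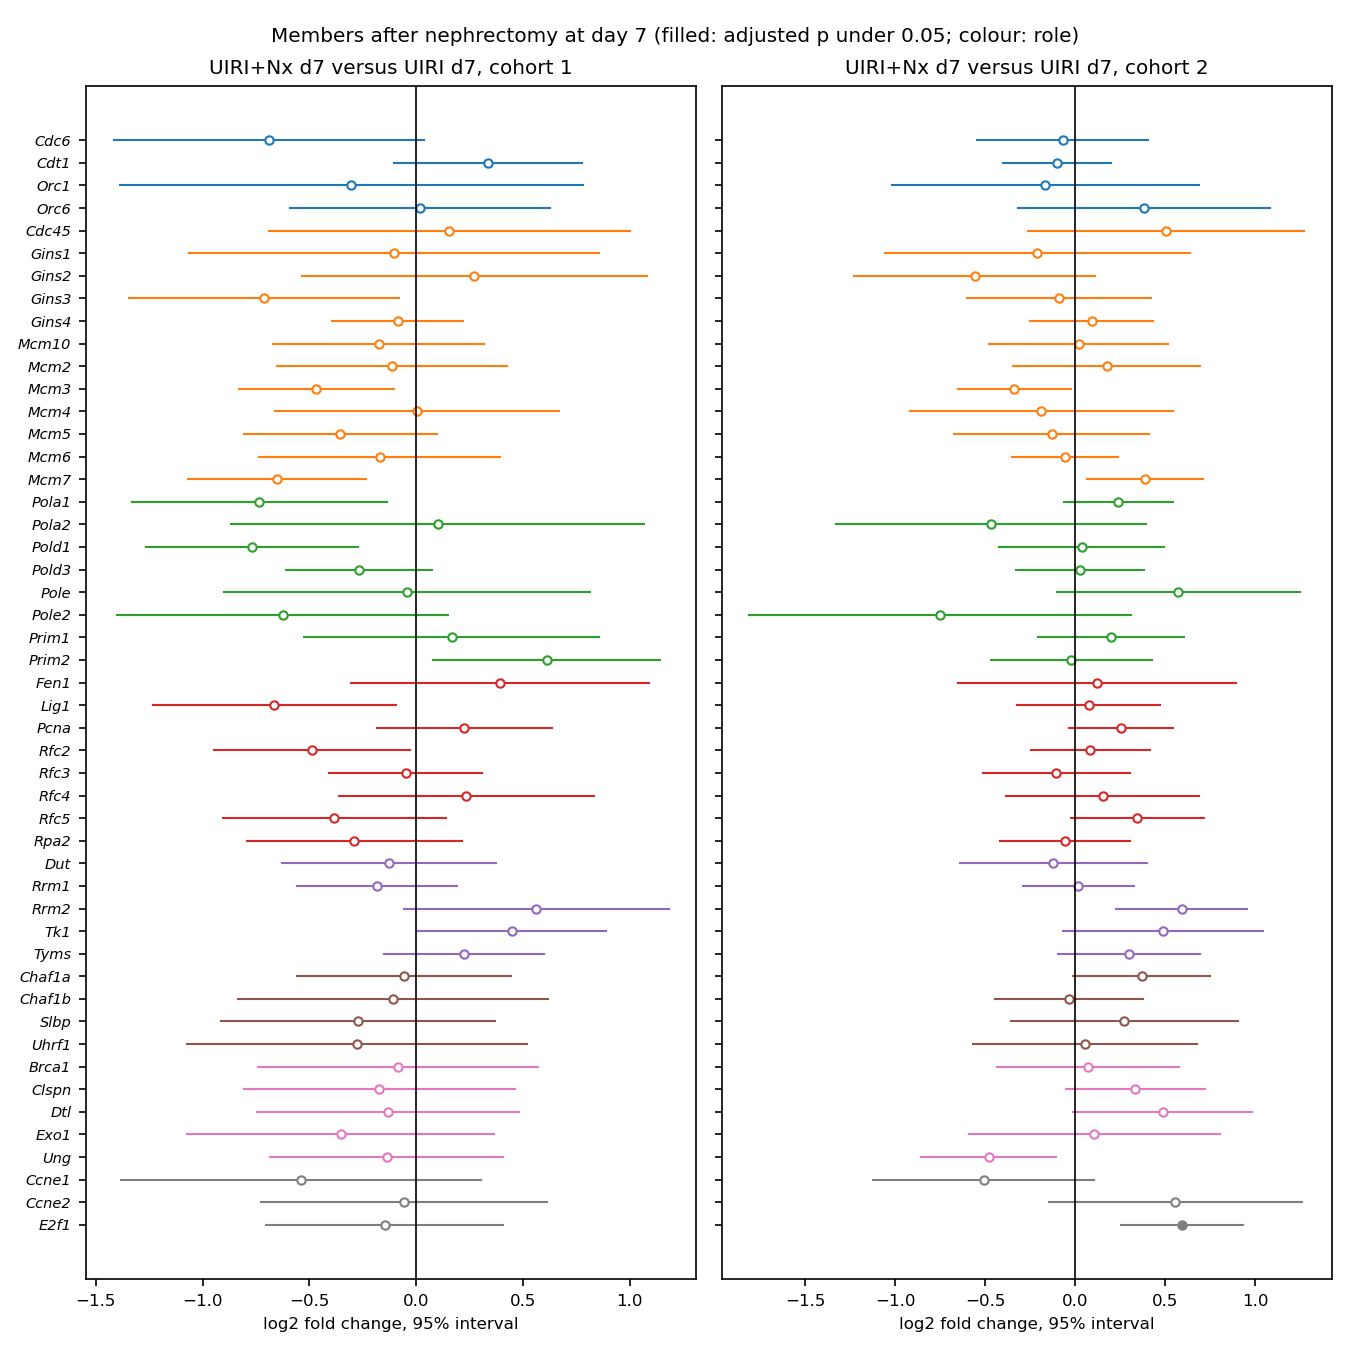
Log2 fold change of UIRI+Nx d7 against UIRI d7 (x axis) for the 49 members in rows, in the first cohort (left) and the second (right), with 95% intervals and colours by role. Most intervals cross 0, and the filled point of E2f1 in the second cohort is the one that passed the test.

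Genes of the same pathway that are not members were counted in the same tests, where 17.8% of all genes rose and 14.9% fell at day 3. Of 15 other origin and helicase genes 7 rose at day 3, led by Dbf4 (2.13 on the log2 scale), a partner of the kinase that fires origins, and Ticrr (4.31), which helps load Cdc45. Orc2 to Orc5, the rest of the origin recognition complex and chosen after their values were seen, ranged from -0.31 to 0.24 and did not pass. Of 19 other fork and polymerase genes 9 rose, led by Wdhd1 (2.47) and Timeless (2.01), both fork factors. Of 6 other chromatin genes 4 rose, led by the histone chaperone Asf1b (3.29) and the remodeller Hells (3.26). Of 13 tested repair genes 10 rose, among them Fancd2 (3.14), which acts in the repair of DNA crosslinks. None in these 4 lists fell at day 3. From day 3 to day 7 no gene of the 4 lists rose in either cohort, and 8 and 18 of 53 fell, against 1.36% and 4.05% of all genes.

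Other nucleotide genes went both ways. Of 8, 2 rose at day 3, where 17.8% of all genes rose and 14.9% fell. Dck, a salvage kinase, rose by 1.19 and Samhd1, which breaks down deoxynucleotides, by 0.56 on the log2 scale. Rrm2b, the reductase subunit of cells outside S phase, fell by 1.15, 1.14 and 0.98 on the log2 scale against Control at day 3, at day 7 and at day 7 after nephrectomy, the reverse of Rrm2. Of 15 other G1/S regulators 9 rose at day 3, led by Ccna2 (4.51), the S phase cyclin, and the repressor E2f7 (3.75). Ccnd2 was lower after nephrectomy than in UIRI d7 in the first cohort (-0.96), and Ccnd1 was higher in the second (0.56).

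G2 and mitosis genes, which act after S phase, had larger medians than the members in each of these steps. Of 40 such genes 39 rose and 1 fell at day 3, against 17.8% and 14.9% of all genes, with a median log2 fold change of 3.65. From day 3 to day 7, 31 of them fell in the first cohort (median -1.53) and 37 fell in the second (median -1.43), and none rose. Of all genes 1.36% and 4.05% fell in that step. The ratio of the summed level of the 49 members to that of the G2 and mitosis genes was 1.72 to 2.0 (median 1.89) in Control, 1.09 to 1.22 (median 1.16) at day 3, 1.39 to 2.17 (median 1.65) at day 7 and 1.35 to 1.97 (median 1.54) after nephrectomy. The day 3 libraries had the lowest ratios, with no overlap with the other groups. In the second cohort the ratios were 1.21 to 1.40 (median 1.28) at day 3, 1.64 to 2.26 (median 1.69) at day 7 and 1.38 to 1.63 in the 4 libraries after nephrectomy. Day 3 was again below UIRI d7, while the nephrectomy libraries began inside the day 3 range. Pttg1, the gene that fell, was a large part of the mitotic sum in Control. Without it, a choice made after its values were seen, the Control ratio was 3.21 to 5.66 (median 4.34) and the day 3 ratio 1.15 to 1.31 (median 1.25), with 1.60 to 2.86 (median 2.01) in UIRI d7 and 1.57 to 2.56 (median 1.94) in UIRI+Nx d7. Both day 7 groups then lay wholly below Control, which they overlapped when Pttg1 was counted. In the second cohort the ratios without it were 1.31 to 1.5 (median 1.39) at day 3, 2.0 to 2.92 (median 2.04) at day 7 and 1.71 to 2.0 after nephrectomy, and the nephrectomy libraries no longer overlapped day 3. The sums weigh abundant genes such as Lig1 most.

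**Figure D5:**
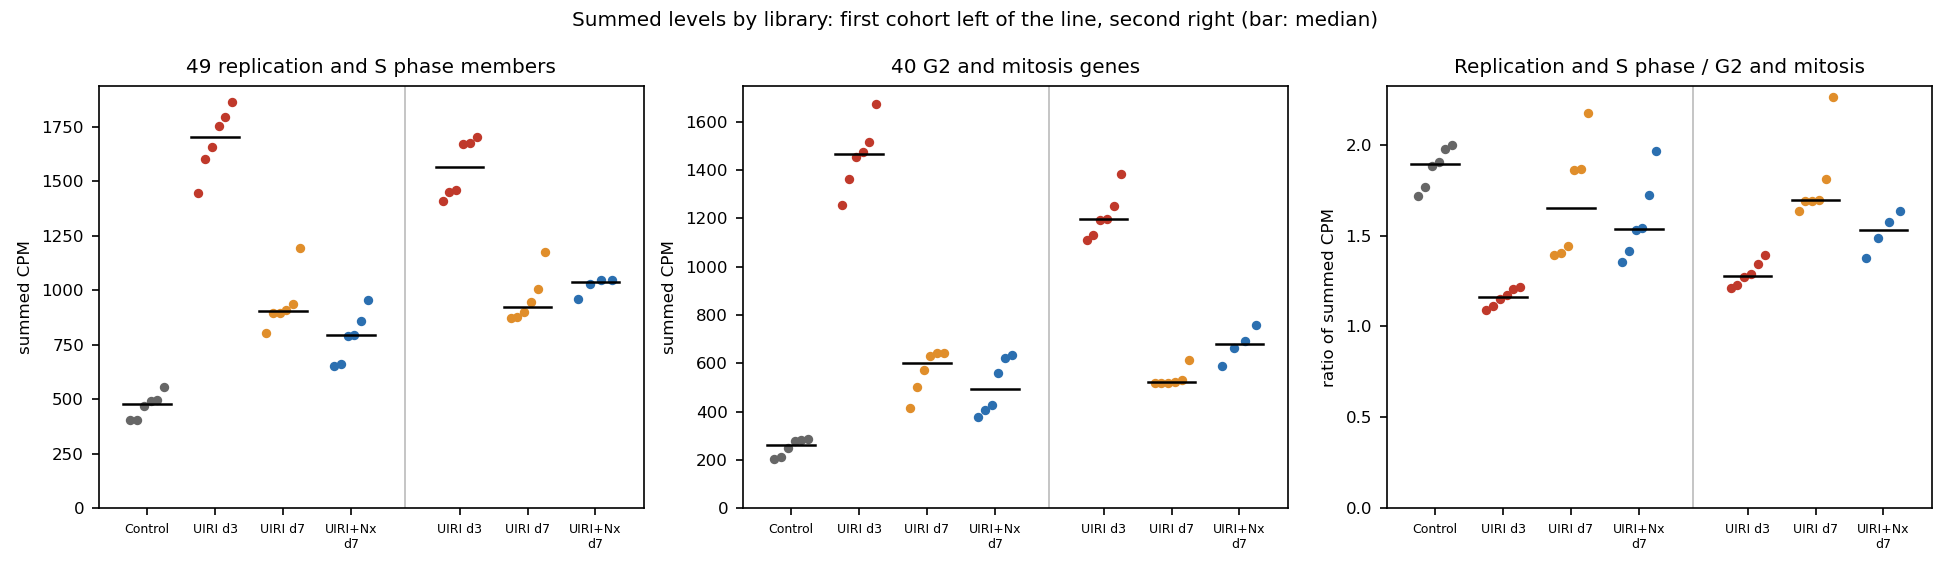
Summed scaled CPM per library of the 49 members (left), of 40 G2 and mitosis genes (middle), and their ratio (right), by group on the x axis, with the first cohort left of the line. Each point is a library and each bar a median. Both sums peak at day 3, and the ratio is lowest there.

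Markers of the cell types in the tissue moved with the groups too. Kidney identity was as labelled: all 9 proximal tubule markers were detected in every group, with a summed level of 14292 to 23674 CPM in Control, 6149 to 9756 at day 3, 4287 to 7071 at day 7 and 5203 to 10332 after nephrectomy. Of these 9 genes 8 fell at day 3 against Control. Injured tubule markers, 6 of 6 of which rose at day 3, went from 36.3 to 72.0 CPM in Control to 1450.2 to 2528 at day 3, 871 to 1965 at day 7 and 714 to 1149.9 after nephrectomy. Macrophage markers went the other way to the members after day 3: 195 to 407 CPM in Control, 515 to 1114 at day 3, 1666 to 3823 at day 7 and 1199 to 2312 after nephrectomy, with 7 of 11 higher at day 7 than at day 3. In the second cohort they went from 947 to 1461 to 1986 to 3823, with 6 of 11 higher, and held 1554 to 2301 after nephrectomy. In UIRI d7 of each cohort the library with the highest macrophage sum also had the highest sum of members: replicate 4 of the first held 3823 and 1196 CPM, and replicate 6 of the second 3823 and 1175 CPM. The member sums weigh abundant genes such as Lig1, for which each of these libraries was the highest of its group. The members did not move as a set there. Replicate 4 was the lowest of its group for Cdt1, Mcm2, Mcm4, Mcm6, Dut and Tk1, among others. Replicate 6 was the lowest for Mcm4, Orc6, Fen1 and Dut, among others. T, B and NK cell markers, 6 of 10 of which were tested, held 4.49 to 16.2 CPM at day 3, 11.2 to 33.3 at day 7 and 0.869 to 8.35 after nephrectomy in the first cohort. Between the day 7 groups 4 of 6 fell with nephrectomy there and 3 of 6 in the second cohort, and Cd79a was at 0 throughout 5 of the 7 groups. Neutrophil markers, 5 of 5 of which rose at day 3, held 2.94 to 12.6 CPM in Control, 44.0 to 1944 at day 3 and 23.4 to 201 at day 7. In the second cohort they held 84.9 to 137 at day 3, 93.0 to 354 at day 7 and 72.2 to 232 after nephrectomy, with none called. Fibroblast markers, 5 of 6 of which rose at day 3, held 208 to 344 CPM in Control, 898 to 1571 at day 3, 953 to 1715 at day 7 and 1414 to 2096 after nephrectomy, and 736 to 984, 949 to 1267 and 1017 to 1324 in the 3 groups of the second cohort. Erythroid precursor markers, which come from dividing blood-forming cells and 4 of 5 of which were tested, went down with the members in the second cohort. They held 72.1 to 294 (median 189) CPM at day 3, 28.6 to 74.8 (median 36.6) at day 7 and 4.07 to 21.1 (median 16.6) after nephrectomy, and 3 of 4 fell in each day 7 group against day 3. In the first cohort they held 21.2 to 655 in Control, 20.4 to 119 at day 3, 46.4 to 462 at day 7 and 2.32 to 179.8 after nephrectomy. Distal nephron markers, 7 of 8 of which fell at day 3, held 6473 to 8055 CPM in Control, 2251 to 3281 at day 3, 1551 to 2219 at day 7 and 2408 to 3663 after nephrectomy. Of the endothelial markers 2 of 5 fell at day 3, and of the podocyte markers 1 of 5, where 14.9% of all genes fell. The part of these cells in the members' changes was not tested.

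Library blocks, inferred from the sheet and library numbers of the columns since the labels name no batches, were checked beside the pooled counts. At day 3 against Control 43 members rose within block 1a, where 15.5% of all genes rose, and 40 within block 2b (9.02%), of 46 pooled, with medians of 1.90 and 1.91. For UIRI d7 against Control block 1a alone called 21 (median 1.12), where 12.3% of all genes were higher and 8.53% lower, and for UIRI+Nx d7 against Control it called 31 higher and 1 lower (median 1.10; 15.6% and 13.1% of all genes) and block 2b called 2 (median 0.93; 2.98% and 1.58%). For UIRI d7 against UIRI d3 in the first cohort, block 1a, with 3 and 2 libraries, called 0 with edgeR at a median of -0.93, and no gene of the whole table (0%), with 22 at an unadjusted p under 0.05, and block 2b has no UIRI d7 library. In the second cohort block 2a called 21, against 28 pooled (median -0.85), where 0.829% of all genes were higher and 1.12% lower, and block 2c has no UIRI d3 library. For UIRI+Nx d7 against UIRI d3 the counts were 21 in 1a and 4 in 2b in the first cohort, and 5 in 2a in the second, with medians of -1.01, -1.14 and -0.65. The shares of all genes called lower there were 4.44%, 0.367% and 1.17%. UIRI+Nx d7 against UIRI d7 called 0 within 1a, 2a and 2c by edgeR, with medians of -0.07, 0.20 and 0.02 and with 1, 2 and 4 at an unadjusted p under 0.05. At most 0.0631% of all genes were called in either direction in those 3 blocks. DESeq2 was not run within blocks. Block 1b, with a single Control, day 3 and nephrectomy library, gave no value.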

How the data were processed

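RNA of 40 labelled mouse kidney libraries was sequenced as 3′ tags. The authors deposited raw counts per Ensembl gene. Per the submitters' processing notes, the first cohort used GRCm38 with HTSeq 0.6.1, STAR and Trimmomatic, and the second GRCm39 with STAR 2.7.11b. The annotation, the strand setting and the second cohort's counting tool were not given in the sources used. Libraries held 5090418 to 33362940 counts.

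Symbols matched 48349 of 48795 genes. Each cohort was fitted alone with all its groups in edgeR 4.0.16 (R 4.3.3; TMM scaling, filterByExpr, quasi-likelihood test), leaving 15701 and 15543 genes, with Benjamini-Hochberg adjustment over all of them and a threshold of 0.05. Differences between cohorts came from 1 joint fit of 16606 genes. The scripts were tested on simulated counts. The alternatives were DESeq2 1.42.0, RLE scaling, no filter, only the groups compared, replicate number or library block as a covariate, single blocks, and each library left out.

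The members and gene lists were chosen with earlier results of these data known. Values in every group are given for the 2 most abundant members of each role and for members not called at day 3 or called against the rest, and each role's highest and lowest day 3 to day 7 values are named. Further members were named after their values were seen. Of the other pathway lists, the 2 genes with the smallest adjusted p at day 3 and those called against their list are named. Results of some of these genes are not reported here. Replicate numbers were taken as names and not treated as pairs. Same-numbered libraries had correlations of -0.56 to 0.64 over 50 pairs. Differently numbered libraries were not set beside them, so this range cannot show whether the numbers pair libraries. Nothing in the labels says whether libraries came from separate litters or days, so p-values measure the spread between these libraries.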

Additional observations from a re-analysis of the deposited data

Results flagged for a closer look

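Dixon's test was run 154 times, each time on a member or a sum in a group of 4 to 6 libraries. In 13 of these runs 1 library lay far from its group. The test by chance picks about 1 in 20 such sets, but these sets reuse the same libraries and are not independent. In the first cohort, replicate 4 of UIRI d7 was the highest for Pola1 (42.8 CPM, next 20.3), for Rpa2 (128.1 CPM, next 76.5) and for the sum of the 49 members (1196 CPM, next 936), and it was the lowest for Ung (6.77 CPM, next 13.8). Replicate 2 of UIRI+Nx d7 was the highest for Mcm7 (45.5 CPM, next 33.3), and Control replicate 1 was the highest for Slbp (9.09 CPM, next 4.39).

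Among the second cohort's UIRI d7 libraries, replicate 6 was the highest for Lig1 (330.2 CPM, next 224.3), for Chaf1b (11.04 CPM, next 7.89) and for the ratio of members to G2 and mitosis genes (2.26, next 1.81). Replicate 3 was the highest for Pola2 (8.04 CPM, next 3.62) and Dut (75.8 CPM, next 53.2). Replicate 1 of UIRI+Nx d7 was the highest for Mcm6 (39.6 CPM, next 29.3) and Pola2 (5.92 CPM, next 2.0). The library that the labels put in no group held a member sum of 1229 CPM on its plain library size, above the 357 to 442 CPM of the Control libraries on the same scale. Its library name has the prefix of the second cohort, which has no Control and holds only injured groups. Sums of the injured groups are not given on that plain scale.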

How the results depend on the processing

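The counts of members called at day 3 against Control were 40 to 46 under every alternative run. Counts that moved by over 1.5 times did so mostly within single library blocks, which hold fewer libraries. Within block 1a, 21 members were called for UIRI d7 against Control and 0 for UIRI d7 against UIRI d3. Within block 2b, 2 were called for UIRI+Nx d7 against Control and 4 against UIRI d3, and within block 2a, 5 for UIRI+Nx d7 against UIRI d3 in the second cohort. For UIRI+Nx d7 against UIRI d7 the first cohort's 0 became 2 with library block as a covariate and 2 with DESeq2. The second cohort's 1 became 2 under both of these, and 0 with no filter on low counts, with only the groups compared, and within blocks 2a and 2c. The cause was not tested. No called gene changed direction under any alternative.

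Leaving out 1 library at a time gave 10 to 21 members for UIRI d7 against UIRI d3 in the first cohort, 19 to 31 for UIRI+Nx d7 against UIRI d3, and 0 to 2 for UIRI+Nx d7 against UIRI d7. The lowest of these came without UIRI d7 replicate 2 and without UIRI+Nx d7 replicate 3. In the second cohort it gave 24 to 31 for UIRI d7 against UIRI d3, 14 to 27 for UIRI+Nx d7 against UIRI d3, and 0 to 1 for UIRI+Nx d7 against UIRI d7. The count of 14 came without UIRI+Nx d7 replicate 4. Replicate numbers were also fitted as a block. With this replicate block 46, 33 and 32 members were called against Control, 18 and 27 against UIRI d3 and 0 between the day 7 groups of the first cohort, and 29, 22 and 1 in the second, so it changed no count by over 1.5 times. Low members such as Pola2, Slbp and Clspn in Control rest on few counts per library, which limits how small a change could be called.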
